A study of Rattus norvegicus with 40 samples.

Results

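A group of 10 transcription factor genes was examined that have been tied to the growth of injured axons: *Atf3*, *Jun*, *Sox11*, *Sox4*, *Smad1*, *Cebpb*, *Cebpd*, *Klf6*, *Creb1* and *Srf*. The members were chosen by name, and the rule took every probeset of the array that the platform annotation gives to exactly 1 of these symbols. All 10 genes were found, with 28 probesets of the 31042 tested and 10 of 14217 named genes. Each gene was represented by its brightest probeset over all arrays, and the others stand beside it. *Atf3*, *Sox11* and *Cebpb* had 1 probeset each.

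mRNA was measured in single L4 and L5 dorsal root ganglia (DRGs), which hold the cell bodies of sensory neurons, with 1 Affymetrix rat genome array for each DRG. In the SNL cohort, 5 male Sprague-Dawley rats had the left L5 spinal nerve tied tightly on the far side of the DRG. In the sham cohort, 5 male Sprague-Dawley rats had the same operation with no ligature. All DRGs were taken 4 weeks after surgery, and the contralateral DRGs are from the side without surgery. The sources used here do not give the age of the rats. In order, the 8 groups of 5 arrays are SNL L5 ipsilateral and contralateral, SNL L4 ipsilateral and contralateral, sham L5 ipsilateral and contralateral, and sham L4 ipsilateral and contralateral. The ipsilateral L5 DRG of SNL rats holds the neurons whose axons were tied, whereas the L4 DRG beside it keeps its own nerve.

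When a peripheral axon is damaged, kinases of the JNK pathway and other signals carried back to the cell body switch on a programme of transcription factors. ATF3 and JUN are bZIP proteins that pair with each other and are absent or low in most intact sensory neurons, so that they serve as labels of axotomy. SOX11, SMAD1, KLF6, the C/EBP proteins, CREB and SRF act on growth-associated, cytoskeletal and stress genes, each through its own upstream signal. The DRG is a mixed tissue, and in such bulk RNA more or fewer cells of a type and more or less RNA per cell cannot be told apart.

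The signals were MAS 5 values on a linear scale, and the median of an array lay between 28.6 and 55.6. Fold changes below are differences of log2(signal + 16), ipsilateral minus contralateral unless stated, and understate the change of a dim probeset. Calls rest on limma, with p adjusted over all probesets and a threshold of 0.05. Scaling the arrays to equal medians moved the median log2 fold change of all probesets to 0.00 in SNL L5, -0.10 in sham L5 and -0.07 in sham L4, against 0.12, 0.06 and 0.06 as deposited. The split of all calls in SNL L5 moved with it, with 5221 higher and 7584 lower, against 9408 higher and 5230 lower as deposited. In sham L5 it was 6079 higher and 12901 lower, against 9640 and 5978 as deposited. In SNL L4 the split was 1586 higher and 4182 lower, against 3140 and 2798, and in sham L4 it was 3152 and 8552, against 5355 and 3058. The log2 ratio between the GAPDH probesets at the 3′ and 5′ ends, a measure of RNA degradation, was larger in ipsilateral DRGs, by 0.64 in SNL L5, 0.95 in SNL L4 and 0.43 in sham L4 (exact two-sided permutation test, p = 0.00794 in each, n = 5 and 5, the smallest p of this test, which leaves the pairing by rat out). In sham L5 it was higher by 0.09 (exact permutation test, p = 0.175). The same ratio of actin was higher by 1.14 in SNL L5 (exact permutation test, p = 0.00794), 0.77 in SNL L4 (p = 0.0159 by the exact test) and 0.22 in sham L5 (exact permutation test, p = 0.0556). In sham L4 it went the other way, at -0.21 (exact permutation test, p = 0.159). The part of both ratios in the side differences below was not tested. By the titles of the arrays, the SNL L5 arrays of both sides belong to another array series than the other 30. No label names a series. Every comparison of sides thus stayed within 1 series. The numbers in the titles run in blocks by group, ipsilateral before contralateral, so side and title order cannot be told apart. The sources do not say what these numbers stand for. Mean array medians were higher on the ipsilateral side, at 43.1 against 37.0 in SNL L5 and 54.4 against 49.4 in SNL L4. In sham L5 they were 36.2 against 29.1 and in sham L4 37.3 against 31.7, with no overlap of sides in any.

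In the ligated L5 DRG all 10 genes passed the test, 9 of them higher and *Creb1* lower than on the contralateral side. Of all probesets, 47.2% were called there, 30.3% higher and 16.8% lower. In all 10 genes the arrays of the sides did not overlap, which held for 33.9% of all probesets (20.8% with the ipsilateral side above and 13.1% with it below). In SNL L4 the calls numbered 7, with *Atf3*, *Sox11*, *Cebpb*, *Cebpd* and *Srf* higher and *Sox4* and *Creb1* lower, beside 19.1% of all probesets (10.1% higher and 9.01% lower). The sides did not overlap in 4 genes there, *Sox11* and *Srf* above and *Sox4* and *Creb1* below, beside 15.0% of all probesets (7.63% above and 7.38% below). In sham L5, 5 genes were called higher and *Srf* lower, beside 50.3% of all probesets (31.1% higher and 19.3% lower), and the sides did not overlap in 4, all above, beside 34.2% (22% above and 12.2% below). In sham L4 *Atf3* alone was called, beside 27.1% of all probesets (17.3% higher and 9.85% lower), and no gene had sides that did not overlap, beside 18.2% (11.9% above and 6.31% below). The share of members called in sham L5 and sham L4 was therefore near or below that of all probesets. The median log2 fold change of the 10 genes was 0.74 in SNL L5, 0.36 in SNL L4, 0.15 in sham L5 and 0.07 in sham L4, where that of all probesets was 0.12, 0.07, 0.06 and 0.06.

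**Figure D1:**
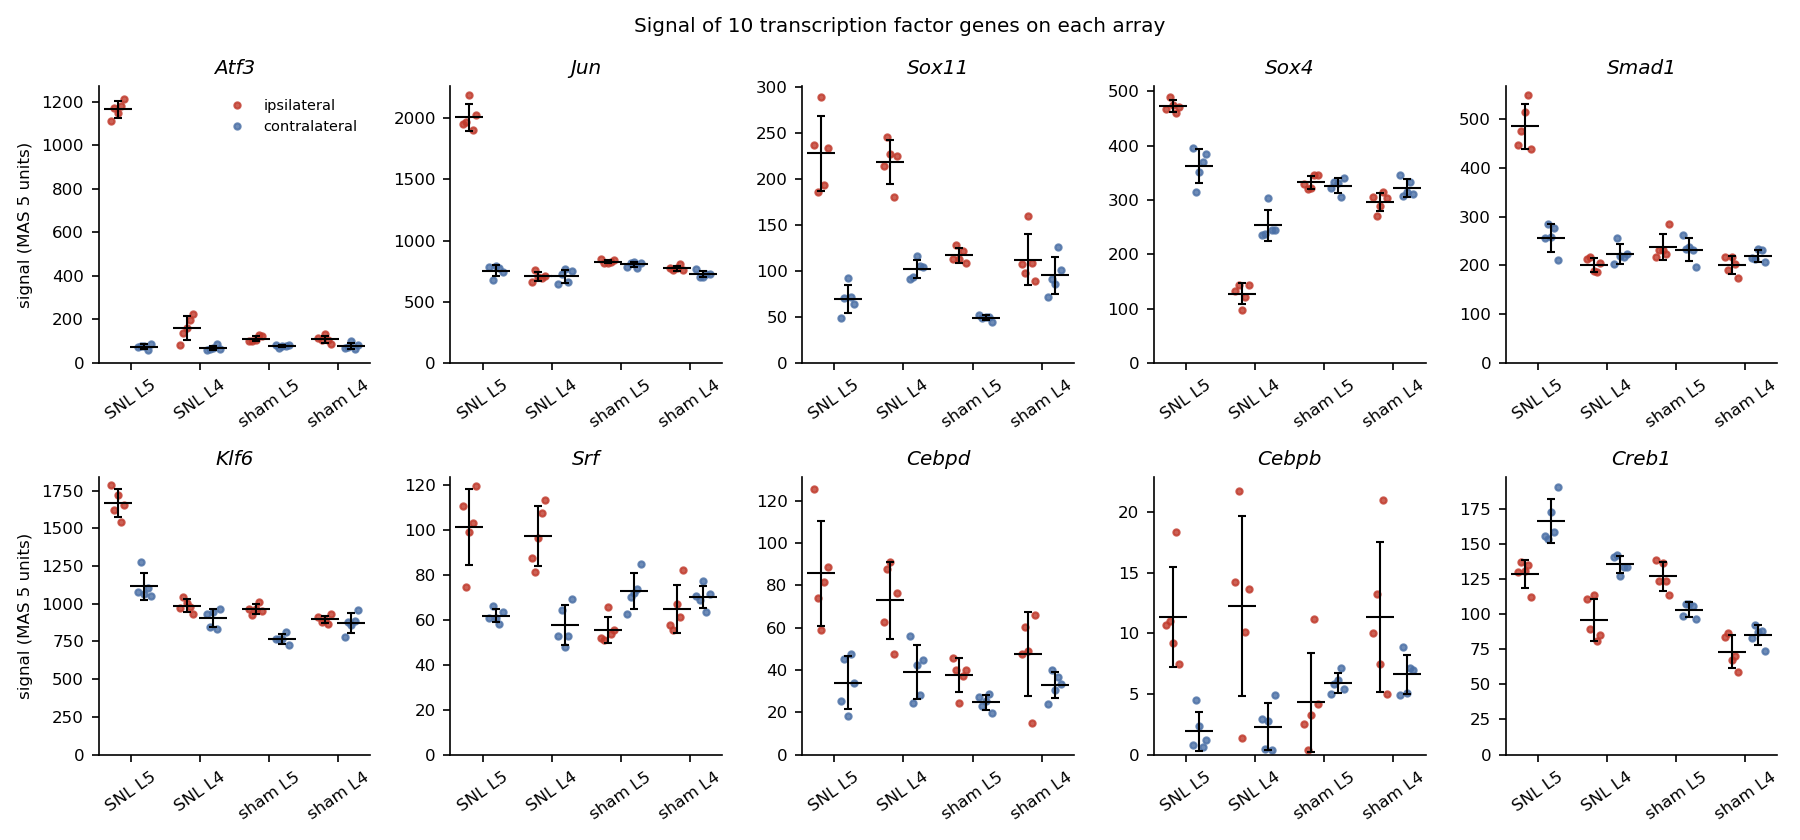
Signal of the representative probeset of each gene (linear MAS 5 units, y axes from 0) on every array, by cohort and segment, with ipsilateral DRGs in red left of contralateral DRGs in blue. Points are arrays, and black bars give mean and SD for each group of 5; *Atf3* has ipsilateral SNL L5 arrays of 1112 to 1214, far above the other 35.

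*Atf3*, the bZIP factor that axotomized neurons switch on, had the widest difference of the group. Its signals in SNL L5 were 1112, 1172, 1146, 1178 and 1214 in the ipsilateral DRGs of rats 4, 8, 9, 18 and 48. On the contralateral side of the same rats they were 73.4, 76.8, 78.6, 61.5 and 89.0. Both sides were thus tight, and the mean was 15.3 times higher on the ligated side, at 1164 ± 38.1 against 75.9 ± 9.91 (SD, n = 5 each). The log2 fold change was 3.69 (SE 0.07, adjusted p = 9.85e-17), larger in size than that of 99.96% of all probesets. Ipsilateral SNL L4 had signals of 83.3, 139.7, 162, 197 and 226 in the same order of rats, against 60.7, 65.2, 71.0, 87.5 and 62.7 on the contralateral side. Every rat was higher on the ipsilateral side, but rat 4 lay far below the other 4, within the contralateral range. The log2 fold change was 1.0 (SE 0.18, adjusted p = 0.000726). The sham DRGs also showed a small side difference. *Atf3* was at 112 ± 12.7 in ipsilateral and 78.9 ± 4.98 in contralateral sham L5 (SD, n = 5 each), a log2 fold change of 0.43 (adjusted p = 0.000205). Sham L4 levels were 109 ± 16.8 and 79.1 ± 13.7 (SD, n = 5 each), a log2 fold change of 0.39 (adjusted p = 0.0143). After scaling to equal medians neither sham call held, at 0.16 in sham L5 (adjusted p = 0.0776) and 0.20 in sham L4 (adjusted p = 0.181).

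*Jun* encodes the AP-1 subunit that JNK phosphorylates. It had signals of 1948, 1971, 2184, 1899.5 and 2028 in ipsilateral SNL L5, against 782, 680.2, 789, 779 and 744 on the contralateral side. The sides lay far apart, and the log2 fold change was 1.39 (SE 0.06, adjusted p = 1.96e-12). This probeset of *Jun* RNA was bright in every group. It was brighter on average than 97.7% of all probesets, and its lowest signal on any array was 644. For this probeset no side difference was called in the other DRGs as deposited. The means were 707 ± 34.2 and 709 ± 54.4 (SD, n = 5 each) in SNL L4, a log2 fold change of 0.00 with a 95% interval of -0.13 to 0.13. In sham L5 they were 829 ± 15.6 and 805 ± 22.4, and in sham L4 774 ± 19.0 and 726 ± 26.6 (SD, n = 5 each), with log2 fold changes of 0.04 and 0.09 that did not pass the test. The sham L5 value was called lower with equal medians (-0.27, adjusted p = 0.000154) and higher with the mean over the probesets of *Jun* (0.13, adjusted p = 0.0491). The other probesets of *Jun* went the same way in SNL L5, with log2 fold changes of 1.56 and 0.85, both called. The dimmest was also called higher in sham L5 as deposited, at 69.3 against 44.7 on average with no overlap of the sides (0.50, adjusted p = 0.000372 from limma).

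*Sox11* and *Sox4* encode related SOXC factors that act in the growth and maturation of neurons, and they behaved differently in L4. *Sox11* was at 237, 186, 289, 194 and 235 in ipsilateral SNL L5, against 49.4, 70.6, 92.5, 71.9 and 63.97 in contralateral SNL L5. The log2 fold change was 1.51 (SE 0.12, adjusted p = 1.87e-08). Signals in SNL L4 were 215, 246, 227, 180.4 and 225, against 92.0, 93.4, 117, 106 and 105, a log2 fold change of 0.98 (SE 0.10, adjusted p = 1.06e-06). As deposited, the ipsilateral arrays of both segments thus overlapped each other and lay above the other 30 arrays. In sham L5 *Sox11* was also higher on the operated side, at 113, 128, 113, 122 and 109 in rats 1, 14, 17, 22 and 23, against 51.9, 48.6, 50.4, 50.1 and 45.1. That log2 fold change was 1.03 (SE 0.06, adjusted p = 9.43e-09), with no overlap of the sides and no ligature. In sham L4 the means of 113 ± 27.5 and 95.4 ± 20.1 (SD, n = 5 each) did not differ by the test (log2 fold change 0.20, 95% interval -0.08 to 0.49).

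*Sox4* had signals of 468, 490.4, 475, 460.1 and 471 in ipsilateral SNL L5, against 396, 316, 351, 369 and 385 on the contralateral side. The log2 fold change of 0.37 (SE 0.06, adjusted p = 5.25e-05) was small beside that of *Sox11*. The order turned in SNL L4, with 132, 144, 97.5, 122 and 143 in ipsilateral DRGs and 235, 238, 303, 245 and 245 in contralateral DRGs. All 5 rats were lower on the ipsilateral side, and the log2 fold change was -0.91 (SE 0.10, adjusted p = 5.39e-06). As deposited, the ipsilateral SNL L4 arrays lay below the other 35. In sham rats the log2 fold changes of 0.03 in L5 and -0.11 in L4 did not pass the test, and the sham L5 value was called in opposite directions by the scaling, at 0.14 with quantile normalization (adjusted p = 0.0304) and -0.28 with equal medians (adjusted p = 0.000325). The sham L4 value was likewise -0.34 with equal medians (adjusted p = 0.00121) but 0.26 with the mean over all probesets (adjusted p = 0.0120). *Sox4* had 7 probesets, with unlike values. The probeset next in brightness was also lower in SNL L4, with 98.7 to 141 against 194 to 239 and a log2 fold change of -0.79 (adjusted p = 8.23e-06). The fifth in brightness was higher there, with 66.5 to 143 against 40.8 to 59.6 and a log2 fold change of 0.66 (adjusted p = 0.00736), and was higher in sham L4 as well, by 1.10 (adjusted p = 1.08e-05). The mean over the 7 probesets had a log2 fold change of -0.03 in SNL L4 (adjusted p = 0.864), and the fall was called for the 2 brightest alone.

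**Figure D2:**
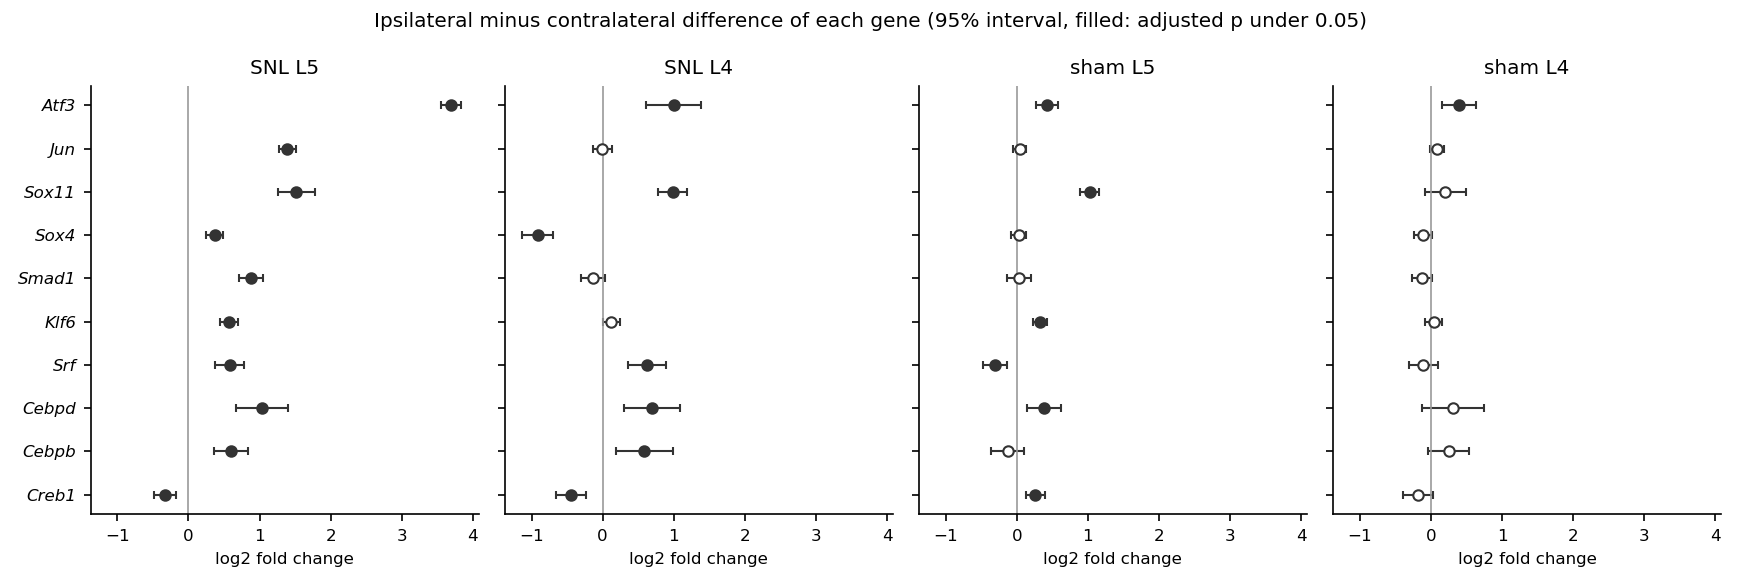
Log2 fold change (ipsilateral minus contralateral, x axis, shared by the 4 panels) of the representative probeset of each gene in SNL L5, SNL L4, sham L5 and sham L4. Points are estimates from limma with 5 arrays a side, bars are 95% intervals, and filled points have an adjusted p under 0.05; *Sox4* lies at 0.37 in SNL L5 and at -0.91 in SNL L4.

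*Smad1*, which carries BMP signals to the nucleus, was at 448, 475, 515, 549 and 439.6 in ipsilateral SNL L5, against 256, 284, 259, 276 and 210.4 on the contralateral side. It rose in every rat, with a log2 fold change of 0.88 (SE 0.08, adjusted p = 5.49e-08). Means in SNL L4 were 202 ± 14.2 and 224 ± 19.9 (SD, n = 5 each), and in sham L5 they were 238 ± 27.2 and 233 ± 23.01 (SD, n = 5 each). Sham L4 means were 201 ± 18.5 and 220.1 ± 11.96 (SD, n = 5 each). None of these 3 passed the test as deposited, with log2 fold changes of -0.14, 0.03 and -0.12. With equal medians all 3 were called lower, at -0.27 in SNL L4 (adjusted p = 0.0274), -0.27 in sham L5 (adjusted p = 0.00897) and -0.34 in sham L4 (adjusted p = 0.00308). With the mean over its probesets sham L5 was called higher instead, at 0.18 (adjusted p = 0.0465). The dimmer probeset of *Smad1* was called higher in SNL L5 (0.47) and also in sham L5 (0.33).

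*Klf6*, a zinc finger factor that promotes axon growth in fish and mice, was at 1784, 1623, 1722, 1541 and 1658 in ipsilateral SNL L5, against 1079.8, 1275, 1062, 1106 and 1054. The log2 fold change was 0.57 (SE 0.06, adjusted p = 5.36e-07). Means in SNL L4 were 986 ± 42.0 and 904 ± 60.4 (SD, n = 5 each), and the log2 fold change of 0.13 was not called as deposited (adjusted p = 0.147) but reached 0.24 with quantile normalization (adjusted p = 0.00364), whereas equal medians gave -0.01 and the mean over its probesets 0.21 (adjusted p = 0.0296). *Klf6* was also higher in ipsilateral sham L5, at 965 ± 32.4 against 768 ± 32.2 (SD, n = 5 each), which gave 0.32 on the log2 scale (adjusted p = 4.44e-05). After scaling to equal medians the sham L5 value was 0.013 (adjusted p = 0.840). In sham L4 the means were 896 ± 26.4 and 872 ± 64.1 (SD, n = 5 each), with no call as deposited and a lower one with equal medians (-0.19, adjusted p = 0.0265). The second probeset of *Klf6*, with signals of 474 to 578 against 463 to 512 in SNL L5, gave a log2 fold change of 0.08 there (not called) and 0.38 in sham L5 (called). The dimmest was called higher in both.

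*Srf* encodes the serum response factor, which binds CArG boxes in immediate early and actin genes together with MRTF or ETS-type cofactors. Its own promoter in the RefSeq assembly GRCr8 holds a pair of CArG boxes, and promoters of 6 of the 10 genes were matched there by symbol (*Cebpb*, *Creb1*, *Klf6*, *Smad1*, *Sox11* and *Srf*, with 7 start sites). The stretch from 81 to 52 bases before the *Srf* start site, chr9:21923995-21924024 on the plus strand, is shown because both boxes lie in it. The box of *Klf6*, on the minus strand at chr17:69458665-69458684, is shown to compare with them. Capitals mark the CArG boxes.
*Srf*: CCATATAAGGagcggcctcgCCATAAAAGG
*Klf6*: gaaggCCTTTAATGGagagg
Both sequences read 5′ to 3′. A CArG box was found in 1.64% of the 33469 promoters of that table, searched on both strands over windows of one length, and in 2 of the 6 members. A match describes the letters and is no evidence of binding.

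*Srf* was at 111, 74.4, 98.8, 103 and 119.6 in ipsilateral SNL L5, against 60.9, 66.0, 60.9, 58.0 and 63.3 on the contralateral side. The ipsilateral arrays spread widely, with rat 8 near the contralateral ones, and the log2 fold change was 0.58 (SE 0.10, adjusted p = 8.61e-05). SNL L4 arrays had signals of 87.3, 81.3, 96.4, 107 and 113, against 52.9, 64.4, 48.01, 52.9 and 69.1. That difference was of like size, at 0.62 (SE 0.13, adjusted p = 0.00178). In sham L5 *Srf* was lower on the operated side, at 55.5 ± 5.89 against 72.6 ± 8.06 (SD, n = 5 each), a log2 fold change of -0.31 (adjusted p = 0.00472). In sham L4 it was at 64.6 ± 10.6 and 70.3 ± 4.90 (SD, n = 5 each), with no call as deposited and a lower one with equal medians (-0.29, adjusted p = 0.0199). The other probesets of *Srf* were dim, with means over all arrays of 8.24 and 4.92. The first of them was called higher in SNL L4, at 28.6 against 6.76 on average, but not in SNL L5. With the mean over its 3 probesets *Srf* was at 0.10 in SNL L5 (adjusted p = 0.331) and -0.02 in sham L5 (adjusted p = 0.801), neither of them called.

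*Cebpd* and *Cebpb* encode bZIP factors of the inflammatory and acute phase response. *Cebpd* was at 125, 74.2, 58.8, 81.4 and 88.5 in ipsilateral SNL L5, against 25.2, 45.0, 18.4, 47.4 and 33.8, a log2 fold change of 1.03 (SE 0.17, adjusted p = 0.0001). It was not called there by the methods' t-test at p under 0.001. The other probesets of *Cebpd* were dim, with means over all arrays of 13.8 and 7.37, and were called in no comparison of sides. Their values in SNL L5 were 0.32 (adjusted p = 0.0756 from limma) and 0.03 (adjusted p = 0.875 from limma). In SNL L4 it was at 62.5, 87.6, 90.9, 47.3 and 76.3, against 55.9, 24.1, 42.4, 28.4 and 44.4. Each of the 5 rats was higher on the ipsilateral side although the ranges overlapped, and the log2 fold change was 0.70 (SE 0.19, adjusted p = 0.0130). This call was lost with the mean over its probesets (0.44, adjusted p = 0.0650) and by the methods' t-test (adjusted p = 0.0591). Sham L5 gave a higher ipsilateral level, 37.4 ± 7.99 against 24.7 ± 3.55 (SD, n = 5 each), by 0.38 (adjusted p = 0.00919). With quantile normalization this was 0.17 (adjusted p = 0.284), and with equal medians 0.18 (adjusted p = 0.167), neither of them called. In sham L4 the ipsilateral signals were 47.7, 60.4, 49.0, 14.7 and 65.7 in rats 1, 14, 17, 22 and 23, against 24.1, 39.8, 30.6, 36.4 and 33.5. The difference of 0.31 (adjusted p = 0.285) turned on rat 22, and without its ipsilateral array it was 0.55 (adjusted p = 0.00533).

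The only probeset of *Cebpb* was very dim, brighter on average than 9.23% of all probesets. Its signals in SNL L5 were 7.51 to 18.3 in ipsilateral and 0.632 to 4.53 in contralateral DRGs, a log2 fold change of 0.60 (SE 0.11, adjusted p = 0.000321). In SNL L4 they were 1.37 to 21.8 and 0.384 to 4.94, a log2 fold change of 0.59 (adjusted p = 0.0388). This call was lost in 8 of the 10 fits that left out 1 array, with adjusted p of 0.0521 to 0.0933. In sham L5 the signals were 0.354 to 11.1 and 4.95 to 7.17, and in sham L4 they were 5.00 to 20.9 and 4.94 to 8.84, with no call in either. Without the ipsilateral array of rat 22 the sham L5 value was -0.24 (adjusted p = 0.0180), and with quantile normalization it was -0.32 (adjusted p = 0.0194), both called lower.

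*Creb1* encodes the cAMP response element binding protein, which sensory neurons use for signals of cAMP and neurotrophins. It binds the sequence TGACGTCA or the shorter TGACG within it. The table lists 2 start sites of *Creb1*, and the window of the upstream one holds TGACG 3 times, a letter pattern present on either strand in 21.2% of the promoters in that table, whereas the full TGACGTCA, found in 1.83% of them, is in no member's window. The stretch from 81 to 54 bases before that start site, chr9:73397428-73397455 on the plus strand of GRCr8, is shown because a pair of the 3 lies in it, in capitals. It lies inside the annotated gene, which begins at position 73397333.
*Creb1*: gTGACGcggcggaggtgtagttTGACGc
*Cebpb*, *Smad1* and *Srf* also held TGACG within their windows. The AP-1 element TGANTCA, in 7.33% of promoters, was in none of the 6.

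The representative probeset of *Creb1* was the only one of the 10 lower in SNL L5, at 129.7, 137, 130.4, 135 and 112 in ipsilateral DRGs, against 155, 153, 173, 158 and 191 in contralateral DRGs. The log2 fold change was -0.33 (SE 0.07, adjusted p = 0.00116). SNL L4 arrays were at 110.4, 89.5, 113, 81.0 and 85.3, against 141, 142, 127, 133 and 133, a log2 fold change of -0.44 (SE 0.10, adjusted p = 0.00495). All 5 rats were thus lower on the ipsilateral side in both segments. In sham L5 it was higher on the operated side, at 127 ± 10.4 against 103 ± 5.10 (SD, n = 5 each), by 0.26 (adjusted p = 0.00280), and the direction turned after scaling to equal medians (-0.016, adjusted p = 0.840). In sham L4 it was at 73.3 ± 11.7 and 84.9 ± 7.14 (SD, n = 5 each), with no call as deposited. There it was called lower with equal medians (-0.38, adjusted p = 0.00726) and higher with the mean over its probesets (0.31, adjusted p = 0.0132).

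The 4 probesets of *Creb1* differed in their side differences in SNL rats. The third in brightness was called higher in SNL L5, at 49.3 to 58.6 against 28.8 to 52.1, by 0.33 (adjusted p = 0.0196). Both it and the second in brightness were called higher in sham L5, by 0.82 and 0.61, and in sham L4, by 0.84 and 0.61. With the mean over the 4 probesets, the value of *Creb1* was 0.065 in SNL L5 (adjusted p = 0.446) and 0.018 in SNL L4 (adjusted p = 0.927), so its direction depends on the probeset. The difference between cohorts was shared by more of them. The SNL minus sham value at L5 was -0.59 for the representative, -0.53 for the second and -0.48 for the third, and all 3 were called lower.

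**Figure D3:**
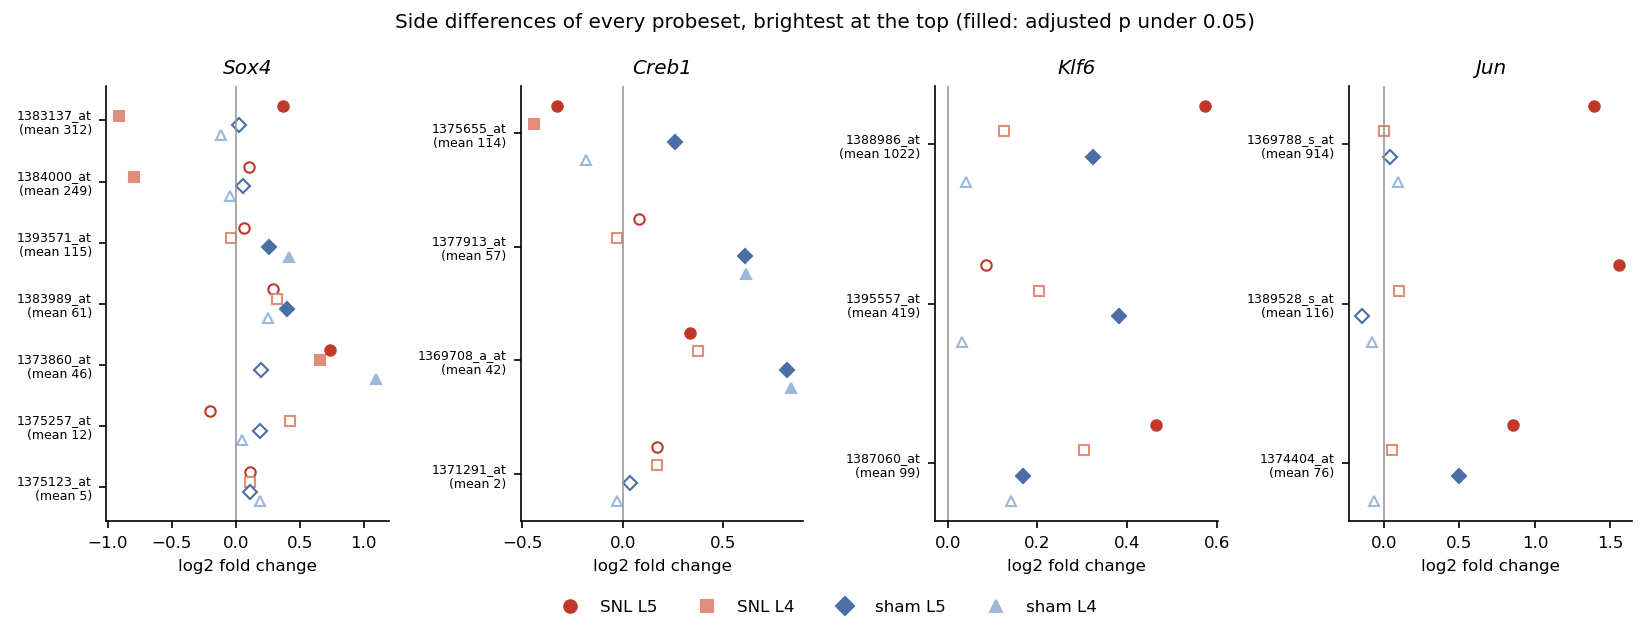
Log2 fold change (ipsilateral minus contralateral, x axis) of every probeset of *Sox4*, *Creb1*, *Klf6* and *Jun*, ordered from the brightest at the top, with the mean signal over all 40 arrays under its name. Symbols mark the 4 comparisons, and filled symbols have an adjusted p under 0.05; the brightest 2 probesets of *Sox4* lie at -0.91 and -0.79 in SNL L4, while a dimmer one lies at 0.66.

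Over the 18 other probesets of the 10 genes, 6 were called in SNL L5, all higher, a smaller share than the 47.2% of all probesets. Of these, 5 had the direction of their representative and the opposite one was of *Creb1*. In SNL L4, 2 were called higher and 1 lower, beside 19.1% of all probesets (10.1% higher and 9.01% lower). The one of opposite direction was the probeset of *Sox4* given above. In sham L5, 8 were called higher and none lower (limma, adjusted p under 0.05), 4 of them for genes whose representative was not called, again below the 50.3% of all probesets. In sham L4, 4 were called higher, of *Sox4* and *Creb1*, whose representatives were not called, where 27.1% of all probesets were called.

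The side differences were then compared between cohorts, which asks how far ligation went beyond the operation alone. At L5 all 10 genes differed between SNL and sham rats, 9 with a higher and *Creb1* with a lower value in SNL, beside 43.2% of all probesets called (20.9% higher and 22.3% lower). The differences of log2 fold changes were 3.26 for *Atf3* (SE 0.10, adjusted p = 7.88e-19), 1.35 for *Jun* (adjusted p = 1.18e-14) and 0.89 for *Srf* (adjusted p = 2.17e-06). They were 0.85 for *Smad1* and 0.73 for *Cebpb*. Those of *Cebpd*, *Sox11*, *Sox4* and *Klf6* were 0.65, 0.49, 0.34 and 0.25. *Sox11* had side differences of 1.51 in SNL L5 and 1.03 in sham L5. The second probeset of *Klf6* went the other way, at -0.30 (adjusted p = 0.00439). With the mean over all probesets of a gene, 6 of the 10 were called, and *Sox4*, *Cebpd*, *Klf6* and *Srf* were not. *Cebpd* was not called in a joint fit of the 8 groups either (adjusted p = 0.0613). The SNL L5 and sham L5 arrays belong to different array series, so cohort and series cannot be told apart in this comparison.

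At L4, 3 genes differed between the cohorts, beside 14% of all probesets (5.72% higher and 8.28% lower). *Sox11* had a difference of 0.78 (SE 0.17, adjusted p = 0.00255), *Srf* of 0.73 (SE 0.15, adjusted p = 0.00158) and *Sox4* of -0.80 (SE 0.12, adjusted p = 2.57e-05). For *Sox4*, the probeset next in brightness was also called, at -0.75 (adjusted p = 1.09e-05), whereas the mean over its probesets was at -0.30 (adjusted p = 0.0820). Of the 18 other probesets of the 10 genes, 3 were called lower and none higher, beside the 14% of all probesets. Among them, 2 had the direction of their representative, and 1 was of a gene whose representative was not called. *Atf3* had 0.61 (SE 0.23, 95% interval 0.13 to 1.08) and missed the threshold (adjusted p = 0.0831). It passed with the rat as a block (adjusted p = 0.0361), in a fit of all 8 groups (adjusted p = 0.0158) and without the ipsilateral SNL L4 array of rat 4, where it was 0.80 (adjusted p = 0.00309). *Klf6*, at 0.08, was called with quantile normalization alone (0.25, adjusted p = 0.0255). For *Jun* the difference was -0.09, with an interval of -0.25 to 0.06, and for *Smad1* it was -0.01, with an interval of -0.23 to 0.20.

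Within SNL rats the signed side difference was higher in L5 than in L4 for 6 genes, beside 19.2% of all probesets called (11.1% higher and 8.08% lower). *Atf3* differed by 2.69 (SE 0.21, adjusted p = 1.21e-10), *Jun* by 1.39 (adjusted p = 5.39e-13), *Sox4* by 1.28 (adjusted p = 3.69e-09) and *Smad1* by 1.02 (adjusted p = 7.70e-08). *Klf6* differed by 0.45 and *Sox11* by 0.53 (adjusted p = 0.0217). For the representative probeset of *Sox4* the sides went opposite ways, at 0.37 in L5 and -0.91 in L4. With the mean over their probesets *Sox4* was at 0.24 (adjusted p = 0.126) and *Klf6* at 0.16 (adjusted p = 0.115), and neither was called. The value of *Sox11* was not called after quantile normalization (0.29, adjusted p = 0.243) or without the ipsilateral SNL L5 array of rat 9 (0.45, adjusted p = 0.0533). For *Srf*, *Cebpb*, *Cebpd* and *Creb1* the segments did not differ by the test, with values of -0.04, 0.02, 0.33 and 0.12. The mean over the probesets of *Srf* was called lower in L5, at -0.53 (adjusted p = 0.0220), and its second probeset alone was at -1.06 (adjusted p = 0.0208). The intervals of these were wide, from -0.36 to 0.28 for *Srf*, -0.45 to 0.48 for *Cebpb*, -0.22 to 0.88 for *Cebpd* and -0.13 to 0.37 for *Creb1*. The segments of SNL rats also belong to different array series, so segment and series cannot be told apart. All 3 of these comparisons share arrays with each other and with the side comparisons.

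**Figure D4:**
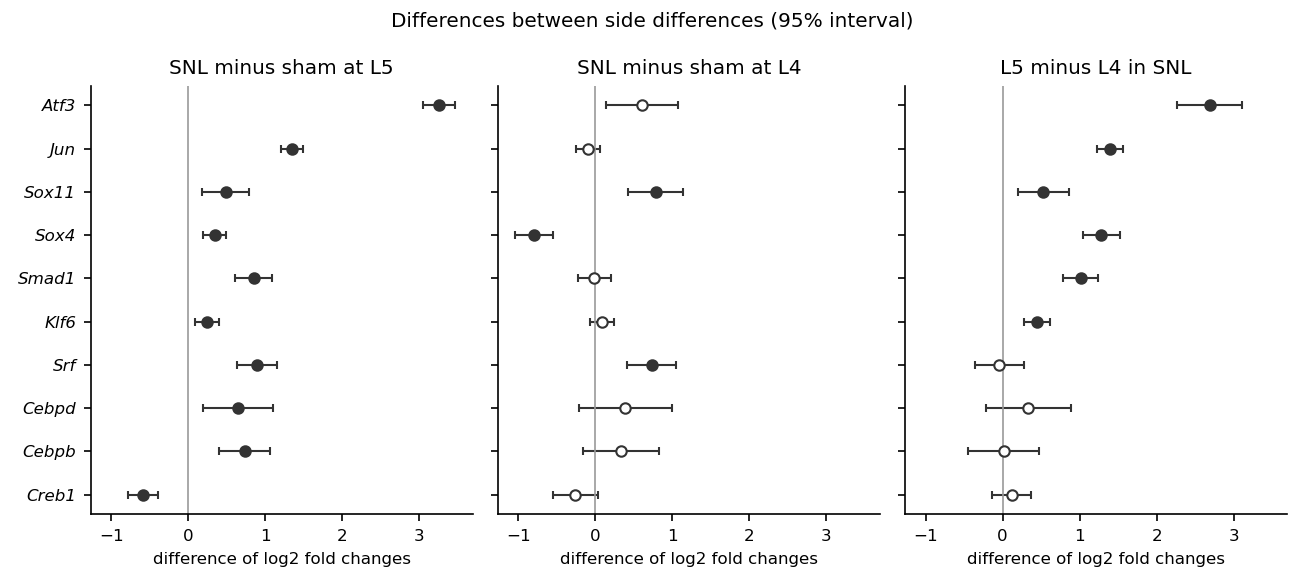
Difference between side differences (x axis, difference of log2 fold changes, shared by the panels) of each gene for SNL minus sham at L5, SNL minus sham at L4, and L5 minus L4 in SNL rats. Points are estimates from limma over 20 arrays, bars are 95% intervals, and filled points have an adjusted p under 0.05; 10, 3 and 6 genes are filled.

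The order of the 8 group means shows the same contrast by gene. For *Atf3*, ipsilateral SNL L5 stood apart, and ipsilateral SNL L4 (162 ± 54.7), ipsilateral sham L5 (112 ± 12.7) and ipsilateral sham L4 (109 ± 16.8) followed with ranges that overlapped each neighbour. The 4 contralateral groups of *Atf3* came last, with means of 69.4 to 79.1 and overlapping ranges. For *Jun*, *Smad1*, *Sox4* and *Klf6*, ipsilateral SNL L5 likewise stood apart from the next group, whereas for *Sox11*, *Srf* and *Cebpd* the ipsilateral SNL L5 and SNL L4 groups came first and overlapped. *Creb1* had its highest mean in contralateral SNL L5 (166 ± 15.7) and its lowest in ipsilateral sham L4 (73.3 ± 11.7).

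The partners of these factors were read from lists of related genes, chosen with earlier results of these data known. Their counts stand beside 30.3% of all probesets called higher and 16.8% lower in SNL L5, with a median of 0.12, and 10.1% and 9.01% in SNL L4, with a median of 0.07. For SNL minus sham at L5, 20.9% of all probesets were called higher and 22.3% lower, with a median of -0.04. Of 14 measured AP-1 and ATF partners, 7 were called higher and 2 lower in SNL L5, with a median log2 fold change of 0.24. *Maff*, a small MAF protein, was at 58.2 against 23.2 (0.92), and *Atf5*, a stress-induced ATF, at 345 against 222 (0.60). *Fosb*, an activity-induced AP-1 subunit, fell to 17.4, against 49.6 on the contralateral side (-0.99). In SNL L4 the list had 1 higher, the AP-1 subunit *Jund* (0.38), and 1 lower, the stress factor *Atf4* (-0.61). In the C/EBP list of 5, 3 were called higher and 1 lower in SNL L5, and *Cebpa*, a factor of myeloid and fat cells, was higher in L5 (174 against 59.0, 1.34) and in L4 (249 against 162, 0.57). Of 7 measured SOX genes, 3 were called higher in SNL L5. They were *Sox10* (0.99) and *Sox2* (0.47), which glial cells express, and *Sox13* (0.70). For SNL minus sham at L5 the AP-1 and ATF list had 3 higher and 4 lower, with a median of -0.03. The C/EBP list had 3 higher and none lower (median 0.41), and the SOX list 4 and 1 (median 0.41).

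BMP and SMAD genes were mixed, with 10 of 18 higher and 4 lower in SNL L5 and a median of 0.30. *Smad4*, the common partner of SMAD1, was at 360 against 197 (0.82), and *Bmp7*, a ligand, at 23.8 against 6.08 (0.85). *Smad9*, which like *Smad1* carries BMP signals, fell to 68.0, against 236 (-1.59), and *Nog*, which encodes the BMP antagonist noggin, fell to 46.7, against 149.7 (-1.39). In SNL L4 *Bmp4* was higher (0.72) and the BMP target *Id3* lower (-0.67), with 4 of 18 in each direction. Of 12 KLF genes, 6 were higher and 3 lower in SNL L5. *Klf7*, which promotes axon growth in mice, fell to 209.7, against 436 (-1.0), and *Klf2* and *Klf15* were higher in both SNL L5 (0.63 and 0.65) and SNL L4 (1.35 and 0.85). For SNL minus sham at L5 the BMP and SMAD list had 7 higher and 6 lower (median 0.06). The KLF list had 4 and 2 there (median 0.06).

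In the CREB list 8 of 11 were higher and 1 lower in SNL L5, among them *Crem*, a cAMP-responsive relative of *Creb1*, at 248 against 128 (0.88), and the coactivator *Crtc3* (0.79). In SNL L4 none of the 11 was called higher and 1 was called lower (limma). The list of SRF cofactors and targets had 12 of 16 higher and 1 lower in SNL L5, with a median of 0.59. It included *Ccn2*, a matrix-associated growth factor, at 268 against 83.1 (1.52), *Egr2*, a factor that Schwann cells need for myelin, at 1306 against 556 (1.21), the actin cross-linker *Flna* (1.15) and the SRF cofactor *Elk3* (1.06). In SNL L4, 6 were higher and 2 lower, with *Ccn2* at 1.06 and *Egr2* at 1.05. Of 9 measured genes of the JNK pathway, 3 were higher and 2 lower in SNL L5, near the share of all probesets. *Map3k12*, the kinase DLK that acts upstream of JNK in injured axons, fell to 234, against 339 (-0.51). *Dusp1*, a phosphatase of these kinases, was higher in L5 (0.83) and L4 (1.32), and the JNK gene *Mapk9* was lower in both (-0.32 and -0.70). For SNL minus sham at L5 the CREB list had 8 higher and 1 lower (median 0.48), and the SRF list 12 and 2 (median 0.75). The JNK list had 3 and 1 there (median -0.18).

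Among 14 other transcription factors of injury, 11 were higher and 1 lower in SNL L5, with *Gadd45a*, a stress-induced regulator, at 331 against 83.9 (1.80), *Nfil3* at 1.45, *Myc* at 1.23 and the NF-κB subunit *Rela* at 1.02. In SNL L4, 4 were higher, among them *Nfil3* (0.67), and *Hif1a* was lower (-0.64). The SNL minus sham value at L5 was called higher in 9 and lower in 1 of this list (median 0.74). Effectors listed as targets of ATF3 and JUN had the highest list median, 0.94 in SNL L5 and 0.29 in SNL L4, with 14 of 17 and 6 of 17 called higher and 1 lower in each. Whether either factor acts on these genes was not tested. In SNL L5 the neuropeptide gene *Gal* was at 1665 ± 99.4 against 84.0 ± 15.4 (SD, n = 5 each), a log2 fold change of 4.08. *Csrp3*, a muscle LIM protein, was at 334 against 20.8 (3.25), *Sprr1a* at 153 against 5.14 (3.0) and *Arg1*, an arginase, at 147 against 10.3 (2.63). In SNL L4 the heat shock protein gene *Hspb1* (0.57) and the stathmin gene *Stmn4* (0.56) were among those called. In sham L5, 9 of the 17 effectors were called higher and none lower, and in sham L4, 5 and none (limma), where 31.1% and 17.3% of all probesets were called higher. The list medians there were 0.28 and 0.24. For SNL minus sham at L5 the list had 12 higher and none lower (median 1.07). At L4 that difference was called higher in 3 and lower in 2 (median 0.04), beside 5.72% and 8.28% of all probesets (median -0.03).

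**Figure D5:**
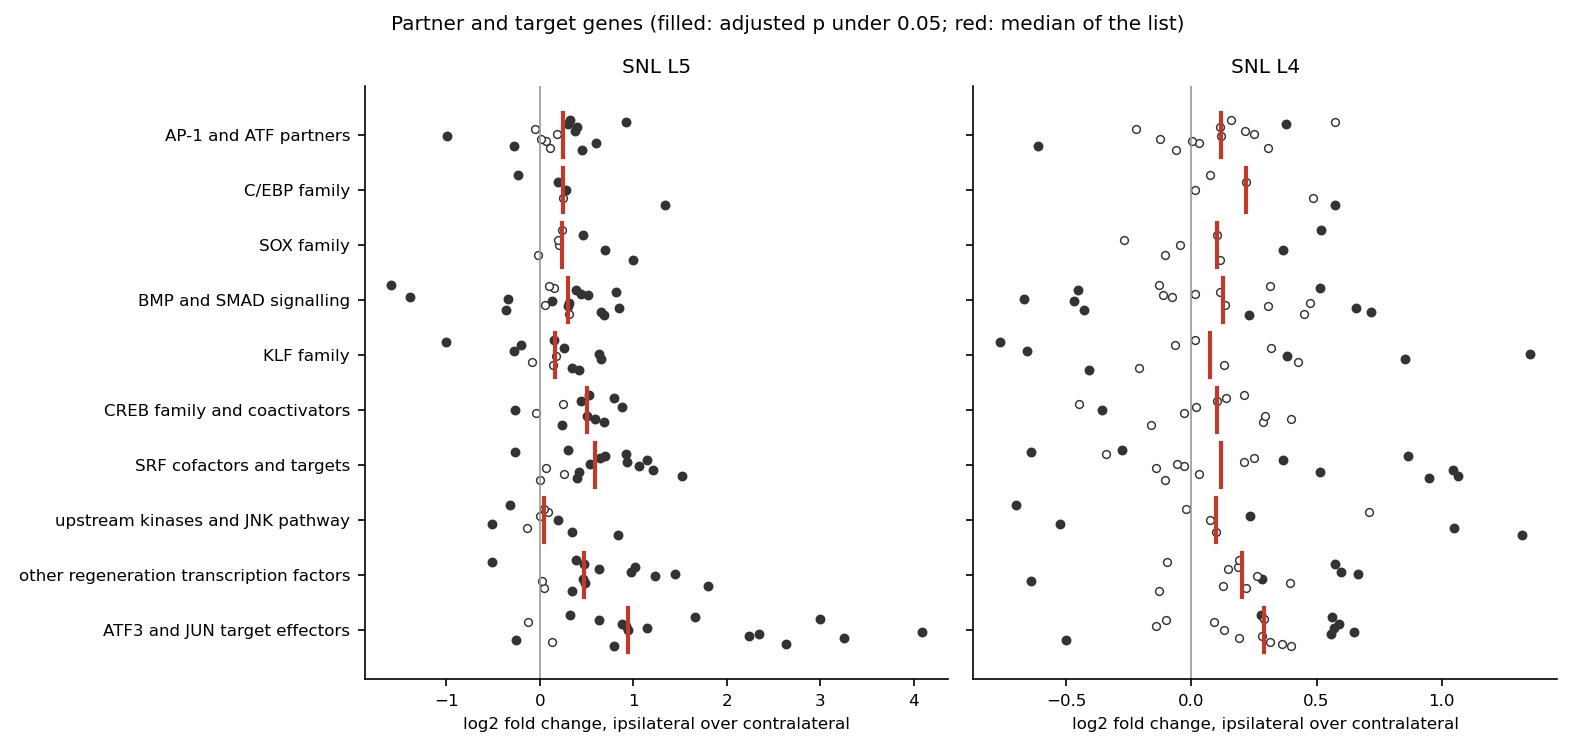
Log2 fold change (ipsilateral over contralateral, x axis) of each measured gene in 10 lists of partners and targets, in SNL L5 and SNL L4. Each point is a gene, filled where the adjusted p from limma is under 0.05, and the red line is the median of the list, which is 0.94 in SNL L5 and 0.29 in SNL L4 for the effectors listed as targets of ATF3 and JUN.

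Genes whose 8 group means followed each member most closely are given as a description, with Pearson's r over those 8 means among 8936 genes above the median signal. With so few means, many genes reach a high r. The means are as deposited, so the level and series of the arrays are not removed from r. *Atf3* was nearest to *Kif22*, *Serpina1* and *Flnc* (r = 0.99 for each) and *Jun* to *Itprid2* (0.99), *Tslp* and *Serpina1* (0.98 each). *Sox11* was nearest to *Plppr3* (0.99), *Cyp21a1* (0.98) and *Stard5* (0.97), and *Sox4* to *Ube2e3*, *Mustn1* (0.99 each) and *Med14* (0.98). *Smad1* was nearest to *Btg1* (0.99), *Sema6a* and *Lyz2* (0.98 each), *Klf6* to *Casp2* (0.99), *Ppp1r12a* (0.98) and *Crem* (0.97), and *Cebpd* to *Tubb2b*, *Tcf7* and *Arhgef28* (0.98 each). *Cebpb* was nearest to *Idh2* (0.99), *Trip6* and *Zfp579* (0.96 each), *Creb1* to *Rlig1* (0.97), *Styx* (0.96) and *Wac-ps1* (0.95), and *Srf* to *Nrros* (0.97), *Rras* and *Nnt* (0.96 each).

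Markers of the cell types of the DRG and of tissue around it also differed between sides. Their counts stand beside the shares of all probesets called. These were 30.3% higher and 16.8% lower in SNL L5, and 10.1% and 9.01% in SNL L4. In sham L5 they were 31.1% and 19.3%, and in sham L4 17.3% and 9.85%. The split moved with the scaling, as given above. Neuron markers were present in every group, and in SNL L5 9 of 12 were called lower and 2 higher, with a summed signal of 14789 to 16811 in ipsilateral and 18833 to 23400.2 in contralateral DRGs. Macrophage markers were called higher in 9 of 12, with sums of 2775 to 3091 against 1038 to 1146, while *Itgam* and *Cx3cr1* stayed under a signal of 16 on both sides. Fibroblast markers were higher in 8 of 8, with sums of 9958 to 11409 against 3433 to 3686, and Schwann cell markers in 6 of 9, with 2 lower and sums of 11428 to 13997 against 9066 to 11329.9. In SNL L4 fibroblast markers were higher in 6 of 8, with sums of 6978 to 7334 against 4285 to 4829, neuron markers in 6 of 12 with 2 lower, and macrophage markers in 3 of 12, with sums of 1071 to 1201 against 990.3 to 1139. In sham L5 neuron markers were higher in 9 of 12 and lower in 1, with sums of 19005 to 23964 against 12751 to 14159.7, fibroblast markers were lower in 4 of 8, and macrophage markers were lower in 6 of 12 and higher in 2, with sums of 1191 to 1368 against 1307 to 1483. In sham L4 neuron markers were higher in 8 of 12 and lower in 1. Skeletal muscle markers were lower in 5 of 6 and higher in 1 in SNL L5, with a median log2 fold change of -3.57 and sums of 1305 to 1448 against 3346 to 3968. In SNL L4 2 of the 6 were higher and none lower (limma), with sums of 3270.3 to 3515 against 2042 to 2215. Neutrophil and blood markers were lower in 5 of 5 in SNL L5, with sums of 3231 to 3615 against 3939 to 5515, and in 4 of 5 in SNL L4, with sums of 956 to 1196 against 2862 to 3252. In sham L5 4 of these 5 were higher and 1 lower. Lymphocyte markers were dim, with 6 of 8 under 16 on both sides in SNL L5. The part of these shifts in the values of the 10 genes was not tested.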

How the data were processed

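The authors hybridized RNA of 40 single DRGs to 40 arrays and deposited MAS 5 signals as linear intensity values. No version of MAS 5 is given in the sources. Groups and rat numbers came from the labels.

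Signals were used as log2(signal + 16), without the 57 control probesets. Each comparison of sides was fitted to its 10 arrays, and each difference of side differences to 20, with lmFit and eBayes from limma 3.58.1 (R 4.3.3) and a trend on mean level. Benjamini-Hochberg adjustment ran over 31042 probesets. The study's methods name a t-test at p under 0.001 and do not call it paired, so rat is no term of the model. The fits were tested on simulated data. Symbols came from the platform annotation.

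The rat pairs the DRGs, since 1 animal gave both sides. Between the sides of a rat, deviations from the group mean had correlations of -0.06 to 0.04 in SNL L5, -0.01 to 0.04 in SNL L4, -0.14 to 0.01 in sham L5 and -0.05 to 0.10 in sham L4.

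The members, lists and tests were chosen with earlier results of these data known. The text names the members, up to 4 called genes per list with sides that do not overlap and the largest fold changes in SNL L5 (up to 2 in SNL L4), and 3 genes of like pattern per member. Other genes in the text are cell markers. Alternatives were offsets of 1 and 64, quantile normalization, equal medians, only probesets above the median signal, no trend, the methods' t-test, stricter thresholds, the mean of a gene's probesets, the rat as a block, a joint fit of the 8 groups and omission of single arrays. The number of arrays limits the precision. Promoter windows came from RefSeq, assembly GRCr8, and those of *Atf3*, *Jun*, *Sox4* and *Cebpd* were not used here. miRNA data were not used here.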

Additional observations from a re-analysis of the deposited data

Results flagged for a closer look

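In 5 of the 80 sets of 5 arrays (10 genes in 8 groups) 1 array lay far from the other 4 on the log2 scale. Chance gives about 1 such set in 20. *Sox4* was at 303 in contralateral SNL L4 of rat 9, against 235 to 245 on the others. *Smad1* was at 286 in ipsilateral sham L5 of rat 23, against 218 to 231. *Cebpd* was at 14.7 in ipsilateral sham L4 of rat 22, against 47.7 to 65.7. *Klf6* was at 1275 in contralateral SNL L5 of rat 8, against 1054 to 1106. *Creb1* was at 112 in ipsilateral SNL L5 of rat 48, against 129.7 to 137.

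The side difference itself differed in 19 of 30 tests (limma, adjusted p under 0.05). Between SNL and sham rats at L5 the differences were 3.26 for *Atf3*, 1.35 for *Jun*, 0.49 for *Sox11*, 0.34 for *Sox4*, 0.85 for *Smad1*, 0.73 for *Cebpb*, 0.65 for *Cebpd*, 0.25 for *Klf6*, -0.59 for *Creb1* and 0.89 for *Srf*. At L4 they were 0.78 for *Sox11*, -0.80 for *Sox4* and 0.73 for *Srf*. Between L5 and L4 of SNL rats they were 2.69 for *Atf3*, 1.39 for *Jun*, 0.53 for *Sox11*, 1.28 for *Sox4*, 1.02 for *Smad1* and 0.45 for *Klf6*.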

How the results depend on the processing

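Counts of called members, with 10 in SNL L5, 7 in SNL L4, 6 in sham L5 and 1 in sham L4 as reported, moved by over 1.5 times under these settings. At a fold of at least 1.5 they were 6 in SNL L5, 1 in sham L5 and 0 in sham L4, and by the methods' t-test at p under 0.001 they were 3 in SNL L4, 3 in sham L5 and 0 in sham L4. The share of all probesets called under either rule was not counted. In sham L4 they were 5, all lower, after scaling to equal medians, 3 with the mean of a gene's probesets and 0 at an adjusted p under 0.01. Equal medians also gave 1 higher and 4 lower in sham L5, against 5 and 1 as deposited. SNL minus sham at L5 gave 6 with the mean of a gene's probesets.

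Leaving out each array in turn gave 10 to 10 in SNL L5, 6 to 7 in SNL L4, 6 to 7 in sham L5 and 1 to 2 in sham L4, where *Cebpd* joined *Atf3* without the ipsilateral array of rat 22. It gave 10 to 10 for SNL minus sham at L5, 3 to 4 at L4, and 5 to 6 for L5 minus L4 in SNL rats. The GAPDH difference, with arrays left out as a choice made after seeing the data, stayed within 0.61 to 0.68 in SNL L5, 0.92 to 1.0 in SNL L4, 0.06 to 0.12 in sham L5 and 0.40 to 0.48 in sham L4.

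*Creb1* changed direction in SNL L5 (0.065) and SNL L4 (0.018) with the mean of its probesets and in sham L5 (-0.016) with equal medians. The rat as a replicate block left the counts at 10, 7, 6 and 1 in the side comparisons and changed 1 call, *Atf3* at SNL minus sham in L4. In SNL L5 every value of the 10 genes kept its direction and call in the 100 fits that left out 1 array. Causes of these moves were not tested. Dim probesets, *Cebpb* above all, and 5 arrays a side limit what can be told.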
